A study of Drosophila melanogaster with 4 samples.

Results

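The genes examined were the cytoplasmic ribosomal protein genes of Drosophila melanogaster, taken as the protein-coding genes whose Ensembl symbol begins with RpL or RpS. This rule gave 92 genes of 13945 protein-coding genes on the main chromosome arms, and it used no measured value. H3K4me3, the trimethylated lysine 4 of histone H3, had been profiled in ovaries by chromatin immunoprecipitation and sequencing, with 2 control and 2 lid KD libraries. Control females carried the MTD-Gal4 driver without an shRNA (MTD-Gal4>+), and lid KD females carried the same driver with an shRNA against lid, the gene of a demethylase that removes methyl groups from this lysine. MTD-Gal4 acts in female germ cells, so the follicle and other somatic cells of these pooled ovaries did not carry out the knockdown, and fewer cells of a type cannot be told apart from less mark per cell. The labels give the age of the females as 3 days in 1 field and as 0 to 1 days, virgin, in another, in the same words for both groups. The comparison addresses what depletion of Lid in the germline does to H3K4me3 at these genes.

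Every eukaryotic ribosome is built from ribosomal RNA and a fixed set of ribosomal proteins, in a small subunit that reads the mRNA (RpS proteins) and a large subunit that joins amino acids (RpL proteins). Their genes are among the most strongly transcribed in growing cells, and egg chambers stock the egg with ribosomes made by nurse cells. In flies many of these genes are Minute loci, at which loss of a single copy slows development. Their transcription commonly begins within a run of pyrimidines called the TCT initiator, and H3K4me3 is a mark of the chromatin just downstream of active starts.

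Start sequences are given because they are a feature that the choice of genes did not use. CTTT, the core of the TCT initiator, begins within 2 bases of the start at RpL24, RpL13 and RpL34b and 6 bases downstream at RpL22. The last 3 lines have none within 10 bases. Each line gives 30 bases of the gene strand, 5′ to 3′, from the RefSeq copy of the dm6 assembly, with the annotated start at base 16, and capitals mark CTTT beginning within 10 bases of the start. The first 4 genes had strong peaks. The last 3 are paralogs with no peak of their own or a weak one, as described further on. The lines are examples only, and CTTT did not separate genes by their peaks: of the 8 genes that lacked a promoter peak in some library 5 carried CTTT, RpL22-like and RpL37-2 among them.
RpL24 (chr2L:13395078-13395107, minus strand): gtttccacttccgttttCTTTtCTTTtcgt
RpL13 (chr2L:9967315-9967344, plus strand): agttggttgcgatttcCTTTttaattcgtt
RpL22 (chrX:765116-765145, minus strand): ccgtcgcttccgccttctgttCTTTttcct
RpL34b (chr3R:9401188-9401217, minus strand): tttctagtttcgtctCTTTgaggtatgcac
RpL10Aa (chr3R:15037351-15037380, plus strand): tacaatacatttcaaattttgtgcttgtag
RpS10a (chr3R:27652745-27652774, plus strand): gaagtttcggtaaatactaatttaagctgg
RpS19b (chr3R:23933516-23933545, minus strand): acttgccaatcgtccattttgactaaagtc

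CTTT on the gene strand began within 10 bases of the start in 60 of the 92 ribosomal protein genes (65.2%) and in 10.97% of all protein-coding genes. With the limit of 2 bases, the one planned for the TCT initiator, it was found in 18 of them (19.6%) and in 2.29% of all. The limit of 10 bases is wider than the planned one. TATCGATA, the element bound by the factor Dref and its own reverse complement, lay between 250 bases upstream and 50 bases downstream of 28 starts (30.4%), against 8.94% of all genes, 16.3% of genes with a promoter peak in all libraries and 20.5% of the 73 mitochondrial ribosomal protein genes. GGTCACACT, the core of Motif 1, lay in the same window on either strand in 9 genes (9.78%), against 5.87% of all genes, 11.5% of genes with a promoter peak in all libraries and 10.96% of mitochondrial ribosomal protein genes. TATAAA from 40 to 20 bases upstream was present at RpL39 alone (1.09%), against 7.2% of all genes and 2.08% of genes with a promoter peak in all libraries. A match of letters is a description and not a bound site.

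The deposited lists held 12087 to 25302 peaks per library, control 2 having the longest list and the lowest genome background (48.4 fragments per base, against 55.5 to 60.1 in the others). Over 8864 regions called in all libraries, the lid KD pair differed by 0.994 times the counting error and the control pair by 2.26 times. The lid KD pair was therefore counted as 1 sample, although the study's methods describe the libraries of each group as biological replicates. Among ovary markers, 4 of the 6 germ cell genes found in the annotation had a promoter peak in every library, and vas had none. The germ cell gene aub had none in either control and peaks of 7.60 and 8.05 times background in lid KD 1 and lid KD 2. Of 9 somatic markers, 7 had one, at a median coverage of 2.31 to 2.85 times background. Of 6 markers of other tissues, Mhc, Act88F, aly and can, of muscle and testis, had none, the neuronal gene elav had weak peaks in all libraries (2.31 to 3.33) and the neuronal gene nSyb had peaks of 21.7, 26.1 and 25.1 in all libraries but control 1, with summits more than 1000 bp upstream of its canonical start. At lid itself (Kdm5 in the annotation) the promoter peak reached 20.8, 33.7, 30.9 and 29.2 times background in control 1, control 2, lid KD 1 and lid KD 2. No transcript was measured in these files, and the knockdown could not be checked from them.

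A promoter was defined as 500 bp on either side of any annotated transcript start. By this definition 84 of the 92 ribosomal protein genes (91.3%) carried a peak in all 4 libraries, where 48.3% of all protein-coding genes and 71 of the 73 mitochondrial ribosomal protein genes did. The large subunit without its stalk had 44 of 50, the small subunit 36 of 38 and the stalk genes 3 of 3. Among the 44 genes whose window held no start of another gene, 36 had a peak in all libraries, against 33.0% of all such genes.

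The 8 genes that lacked a promoter peak in at least 1 library fell into a group of duplicated copies and a group of single-copy genes. RpL10Aa, RpL22-like, RpL37-2 and RpS28-like, each a copy of another ribosomal protein gene, had no promoter peak in any library. RpS10a had none in control 1 and weak peaks of 2.03, 2.32 and 2.26 times background in control 2, lid KD 1 and lid KD 2. The single-copy genes RpL27, RpL38 and RpL39 had a promoter peak in control 1 only. At RpL27 this reflected the edge of the window: in the other libraries its peak began 503, 517 and 520 bp downstream of the start, with its summit at 669 to 681 bp as in control 1 and a coverage of 33.2, 31.4 and 29.6 times background. At RpL38, on 2R, control 1 had a peak of 8.02 times background, control 2 had none within 1500 bp, and the lid KD libraries had only weak peaks, of 2.45 and 2.77 times background, about 1000 bp downstream. At RpL39, whose protein lines the exit tunnel of the large subunit, control 1 had a peak of 11.7 times background over the gene. The other libraries had none there. Every library had a stronger peak beyond the end of the gene (27.3, 43.5, 37.4 and 35.1, with summits at 1443 to 1491 bp). This stronger peak lay within RpL12, a neighbouring gene of the set, and was the one counted for RpL12. A gene without a called peak may still have had reads, since the lists hold only what passed the peak caller.

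The height of each peak was expressed as summit coverage, the number of fragments over the summit divided by the genome background of that library. At the 84 ribosomal protein genes measured in all libraries its median was 24.0 in control 1, 39.0 in control 2, 34.4 in lid KD 1 and 31.8 in lid KD 2. The medians of all 6716 genes measured in this way were 16.1, 22.9, 24.2 and 23.2, and those of 70 mitochondrial ribosomal protein genes 18.7, 28.3, 27.6 and 26.9. In every library the median ribosomal protein gene thus lay above the upper quartile of all genes, which was 19.6, 30.7, 29.6 and 28.3. In the controls the ribosomal protein genes exceeded all genes by 0.67 on the log2 scale, with an SD of 0.13 over the control libraries, and 56 of the 84 lay among the 672 genes of highest control coverage. Fold enrichment, the deposited value, divides by the local background, which at these genes was 4.29 to 5.35 times that of the genome, against 2.73 to 3.42 at all genes, and on that scale the excess was 0.18.

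**Figure D1:**
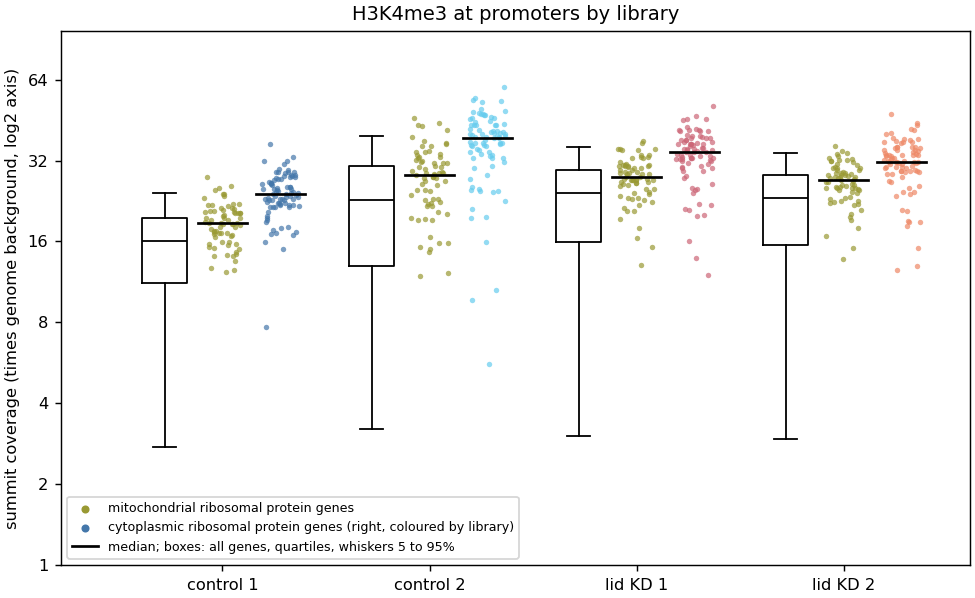
Summit coverage (times genome background, log2 axis) at promoters in the 4 libraries, for all genes (boxes), 70 mitochondrial and 84 cytoplasmic ribosomal protein genes (points, with their median). The cytoplasmic genes had medians of 24.0, 39.0, 34.4 and 31.8, above the upper quartile of all genes in each library.

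Within the set the levels were close to each other, with an SD of log2 coverage of 0.31, 0.55, 0.37 and 0.36 in the 4 libraries, where all genes had 0.91 to 1.08. The highest was RpL22 (chromosome X, 762560-765130, minus strand), a large subunit protein, at 37.0, 60.1, 51.1 and 47.5 times background in control 1, control 2, lid KD 1 and lid KD 2. Its coverage in the controls was the highest of all genes tested. RpL24 followed, with 33.0, 53.1, 45.9 and 42.1. RpS10b, RpL23A, a protein at the mouth of the exit tunnel, and RpL13 were next, between 31.1 and 31.8 in control 1 and between 53.5 and 54.8 in control 2. The mean log2 coverages of RpL24, RpS10b, RpL23A and RpL13 spanned 5.39 to 5.41, less than the spread between libraries, so their order is not resolved.

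At the other end stood RpS15Ab, a copy of RpS15Aa, at 7.67, 9.70, 12.04 and 12.5 times background. Its window also holds the start of Lsm10, and its summit lay upstream, at -189 bp, in control 1 and at 175 to 305 bp in the other libraries. RpS3A, the gene of a small subunit protein and the only one on chromosome 4 (65225-67207, minus strand), had 17.6, 5.62, 13.9 and 12.9. Its control libraries thus lay on either side of the lid KD pair. In control 1 a single peak ran from 87 bp upstream to 1139 bp downstream of its start, and in the other libraries 2 peaks were called, of which the stronger began 501 to 557 bp downstream, just outside the window. RpL10, which joins the large subunit late in its assembly, had 19.9, 10.5, 16.1 and 15.1, and RpL15 had 17.3, 15.9, 22.1 and 18.9. RpS15Aa, the remaining gene of the lowest 5, had 17.3, 19.8, 19.9 and 18.9.

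These low coverages did not go with low fold enrichment at every gene, since the local background differed. RpL15 reached 9.12, 15.6, 19.1 and 17.4-fold and RpL10 9.38, 10.4, 15.8 and 14.9-fold over their local background, against medians of 5.75, 7.66, 6.32 and 6.08 for the ribosomal protein genes with a peak. RpL21 (chromosome 2L, 22247111-22247875), named after its values were seen, had coverages of 23.6, 37.2, 33.6 and 31.2, near the median of the set, and fold enrichments of 9.70, 27.7, 19.1 and 19.2.

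By role, the stalk genes stood above the upper quartile of the set in controls 1 and 2 and below the 5 highest genes. The stalk recruits the elongation factors to the large subunit. RpLP0, its base, had 29.1, 47.5, 42.9 and 37.9 times background, RpLP1 29.1, 47.7, 38.1 and 36.0, and RpLP2 29.0, 49.7, 36.7 and 35.2. The other large subunit genes had medians of 24.9, 39.3, 35.2 and 32.6 and the small subunit genes 23.0, 36.8, 32.9 and 30.8, with quartiles that overlapped in every library. RpL40 and RpS27A, which encode a ribosomal protein fused to ubiquitin, had 23.5, 39.2, 35.3 and 31.3 and 23.1, 31.5, 30.1 and 26.9. Genes with CTTT within 10 bases of the start (55 measured) and without it (29) had medians within 0.5 of each other in every library, 24.0 and 24.2 in control 1 and 31.8 and 31.7 in lid KD 2.

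The summit of the mark lay further downstream at these genes than at others. The summit of the strongest promoter peak lay at a median of 468, 478, 493 and 503 bp downstream of the start in control 1, control 2, lid KD 1 and lid KD 2, where all genes had 214, 256, 284 and 281 bp. For ribosomal protein genes with no other start in the window, the medians were 467, 478, 496 and 500 bp. All genes of this kind had 293, 305, 327 and 323 bp, and mitochondrial ribosomal protein genes of this kind 279 to 294 bp. A neighbour's peak could still reach such a window. The summit lay upstream at 12.7% to 17.0% of all genes of this kind and at 2.56% to 5.41% of the ribosomal protein genes. Other genes of up to 3000 bp with 1 start had 288.5 to 318 bp. A summit more than 400 bp downstream was found at 68.2% to 71.3% of the ribosomal protein genes and at 20.8% to 29.1% of all genes.

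**Figure D2:**
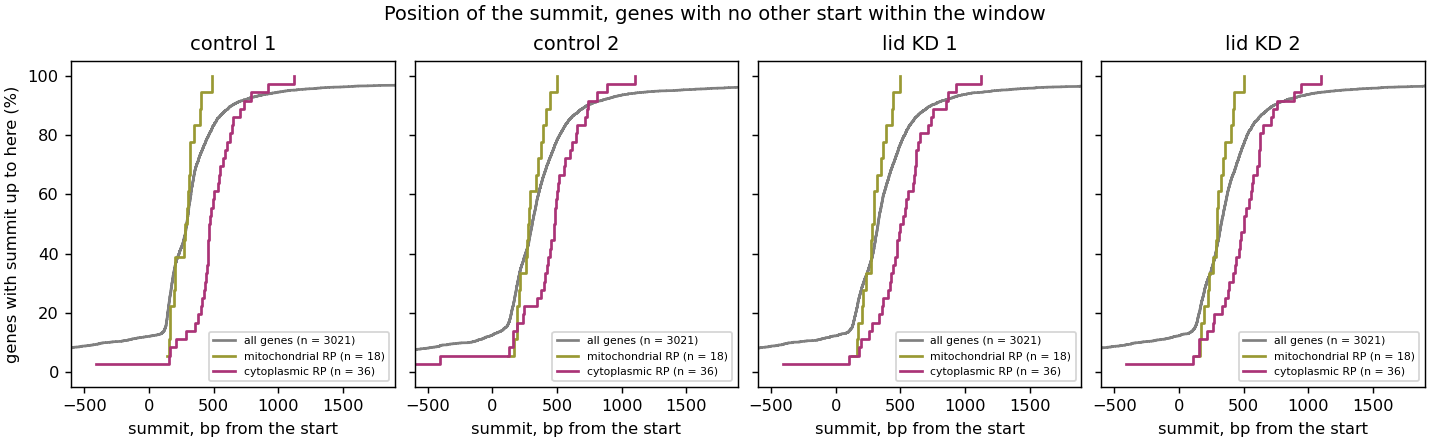
Cumulative share of genes (%) by the distance of the summit from the start (bp) in each library, for genes with no other start in the window and a peak in all libraries. The 36 cytoplasmic ribosomal protein genes lie to the right of the 18 mitochondrial ones and of all genes over most of the range, with medians near 470 to 500 bp against about 290 to 330 bp for all genes.

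Ribosomal protein genes are short and begin with a short exon. In the canonical transcripts of those with a peak in control 1, the first exon had a median of 81 bp and the second exon began 305.5 bp from the start, where all genes with a peak had 309 and 569 bp. Of the 84 with an intron and a peak in control 1, 70 (83.3%) had the summit at or past the second exon, and in the other libraries 77.8% to 79.0% did. Among all genes the share was 24.6% to 29.9%, and among mitochondrial ribosomal protein genes 52.4% to 58.7%. The summit lay in a coding exon at 74, 72, 71 and 70 genes of the 87, 85, 85 and 85 with a peak, most often in the second (35, 29, 29 and 27 genes) or the third (27, 26, 25 and 26). Across 76 to 81 genes with a downstream summit, the distance of the summit from the start and that of the second exon had Spearman coefficients between -0.09 and 0.07, given as a description.

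The peaks spread over much of the gene. Their median width was 1227 bp in control 1, 851 bp in control 2, 893 bp in lid KD 1 and 887 bp in lid KD 2, and the median share of the gene under the peak was 87.2%, 56.8%, 64% and 64.3%. All genes had median widths of 848, 697, 811 and 820 bp. Control 1 stood apart from the other libraries in the width of these peaks and control 2 did not, so a width is read here only with both controls named.

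**Figure D3:**
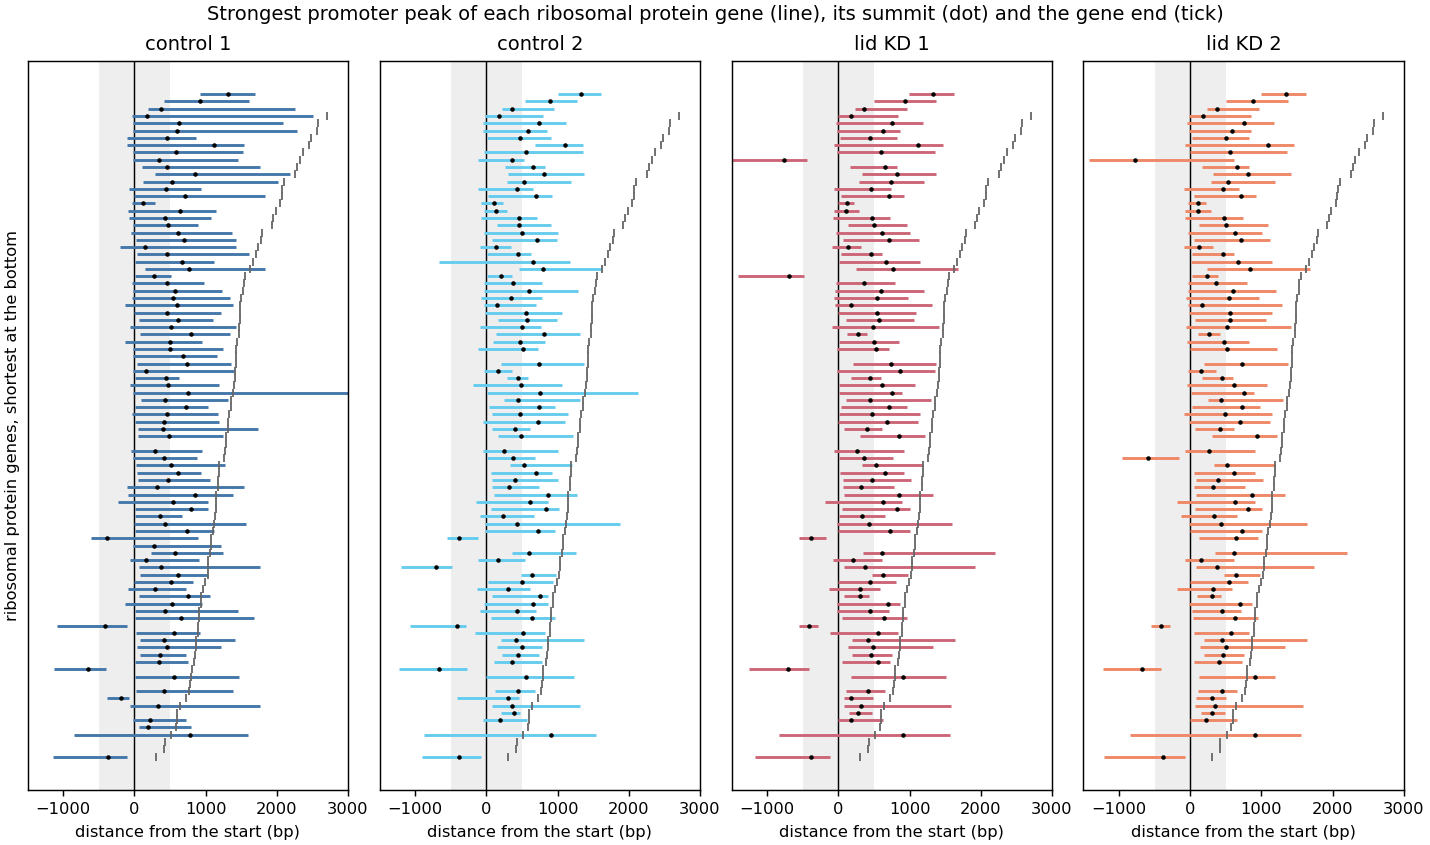
Extent of the strongest promoter peak (line) and its summit (dot) at each ribosomal protein gene, by distance from the canonical start (bp), with 1 row for a gene, ordered by gene length, a grey tick for the gene end and grey shading for 500 bp on either side of the start. Peaks begin near the start and extend downstream, further in control 1 (median width 1227 bp) than in the other libraries (851 to 893 bp), and a few lie upstream over a neighbour.

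Ribosomal protein genes with more than a single copy formed 15 pairs. In 14 of them the same partner had the higher coverage in all 4 libraries, a gene without a peak being taken as lower. This is a description of order, since the 4 libraries were counted as 3 samples.

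In 4 families a copy without any promoter peak stood against a strongly marked one. RpL10Ab, whose protein is 63.9% identical to RpL10Aa, had 22.1, 35.2, 31.96 and 29.0 times background. RpL22 was the highest of the set, and RpL22-like, 47.2% identical and known for expression in the germline, had no promoter peak. RpL37-1 had 28.9, 46.0, 41.7 and 37.4 and RpL37-2, 75.3% identical to it, had none. RpS28-like had none, and its relatives RpS28a and RpS28b had 21.5 to 23.0 in control 1. RpS10b and RpS10a, 75% identical, came close to this pattern, with 31.8, 53.5, 46.9 and 43.6 for RpS10b against a peak of at most 2.32 at RpS10a.

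At RpS19b and RpS28a the peak counted for the promoter lay outside the gene. RpS19b, a copy of RpS19a known for expression in early germ cells, had 14.9, 24.6, 24.99 and 25.2 times background, where RpS19a, 65.8% identical to it, had 24.0, 39.1, 38.2 and 35.6. The summits counted for RpS19b lay at -652 to -703 bp from its start, in a window shared with CG5854, each peak ended at -270 bp or further upstream, and no peak overlapped the first 1000 bp of the gene. RpS28a had 23.0, 40.3, 32.2 and 30.3, from a peak that ended at -72 to -115 bp from its start, in a window shared with Axn and Mgat2. The peak on its transcribed side reached 3.59, 5.75, 4.57 and 4.20. That peak began 510 to 572 bp from the start, beyond the end of this gene of 304 bp. No called peak thus overlapped RpS28a in any library. Its order against RpS28b (21.5, 39.5, 30.4 and 30.2) therefore says nothing of the 2 genes themselves. Counting only peaks between a start and 1000 bp downstream, a choice made after these sites were seen, left 85 of the 92 genes with a peak in all libraries and 47.5% of all genes. RpL10Aa, RpL22-like, RpL37-2, RpL38, RpL39, RpS10a and RpS19b were the 7 without.

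In the other families both copies were marked. RpL34b had 28.8, 47.1, 42.1 and 40.2 times background and RpL34a, 85.5% identical, had 18.9, 27.4, 31.5 and 30.1. RpS5b, known for its expression in the germline, had 22.5, 38.2, 32.4 and 31.7 and RpS5a 18.0, 28.3, 32.4 and 29.4, so that in lid KD 1 both stood at 32.4. The summits of RpS5a lay 1314 to 1341 bp from its canonical start. RpS15Aa exceeded RpS15Ab, 97.7% identical, by 1.17 and 1.03 on the log2 scale in the controls and by 0.72 and 0.59 in lid KD. RpS14a and RpS14b encode identical proteins from neighbouring genes on chromosome X (7933742-7934677 and 7934898-7935792), and in the controls a shared peak, of 21.5 and 32.7 times background, was counted for each. The summit counted for RpS14b lay at -406 to -410 bp in every library, within RpS14a. The authors kept uniquely aligned reads, and what this removed at near-identical copies was not tested.

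RpL24-like, RpL7-like and RpLP0-like are diverged relatives, 26.8% to 35.5% identical to their parents, and in yeast the related proteins act in assembly of the large subunit. All were marked and all stood below their parents. RpL24-like had 23.2, 36.4, 36.6 and 31.7, RpL7-like 17.1, 24.98, 30.6 and 28.5, and RpLP0-like 19.2, 30.0, 24.9 and 24.5, where RpL7 had 26.2, 40.7, 36.9 and 34.7. The summit counted for RpLP0-like lay at -380 to -382 bp in all libraries but lid KD 2, in a window shared with 14-3-3zeta.

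**Figure D4:**
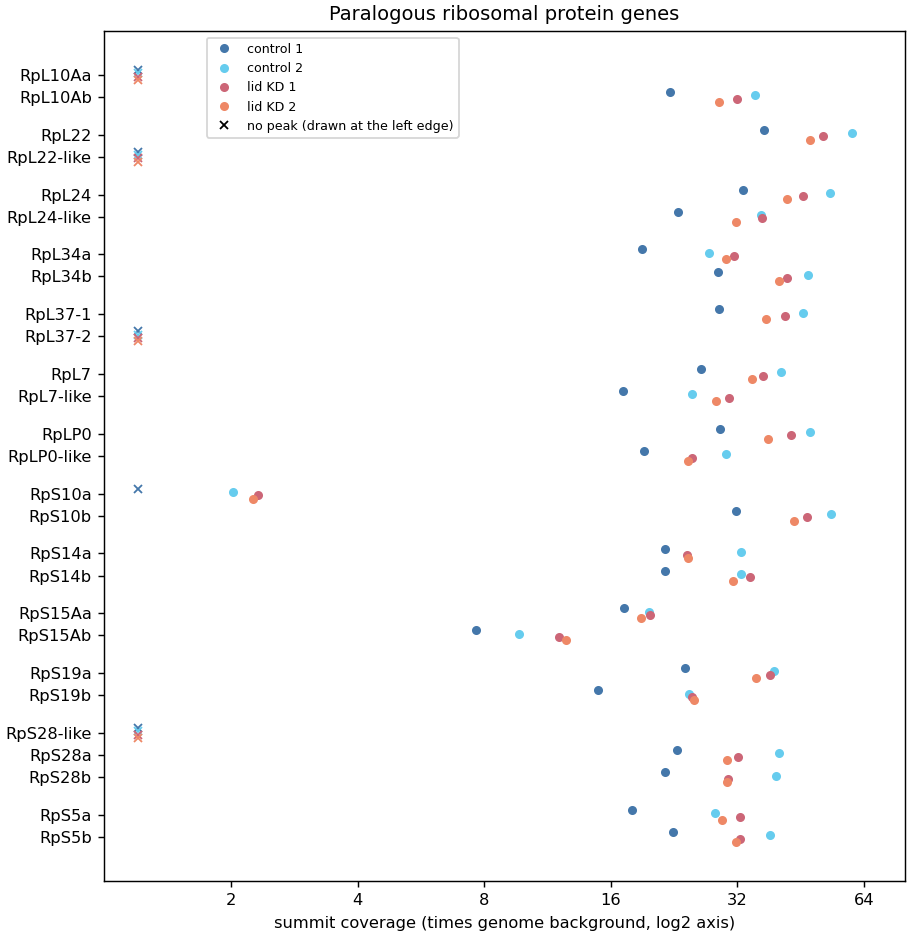
Summit coverage (times genome background, log2 axis) of paralogous ribosomal protein genes in the 4 libraries, with crosses at the left edge for genes without a promoter peak. RpL10Aa, RpL22-like, RpL37-2 and RpS28-like have no peak in any library and RpS10a none in control 1, and their partners lie between 21.5 and 60.1.

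For the comparison of lid KD with control, log2 coverage was centred in each library on the median of all genes tested and tested with limma across 6716 genes, with Benjamini-Hochberg adjustment and a threshold of 0.05. None of the 84 ribosomal protein genes was called higher (0.104% of all genes were) and none lower (0.0298% were). At an unadjusted p under 0.05, 0 were higher, against 0.834% of all genes, and 2 were lower, RpL35A and RpS14a (2.38% of the set, against 2.25% of all genes). The standard errors of these 84 genes had a median of 0.31 and reached 1.67 at RpL22, so a modest change at the strongest genes could not have been called by this fit. These standard errors followed the mean coverage of a gene, through a trend fitted over all genes. Without that trend all 84 genes had the same SE, 0.394, so a gene's own spread between samples did not set it. The p-values thus rest on the difference between control 1 and control 2, taken over all genes, since lid KD entered as 1 sample. They hold no measure of the spread between lid KD samples, and the SE at RpL22 is a fitted value.

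Below the threshold the values leaned one way. The median difference of the ribosomal protein genes was -0.19 on the log2 scale, against -0.04 for all genes and -0.07 for mitochondrial ribosomal protein genes, and 77 of the 84 values were negative, where 4008 of all 6716 genes and 49 of the 70 mitochondrial ones were. The somatic ovary markers had a median difference of -0.45 (6 of 7 negative) and the germ cell markers one of -0.02 (2 of 4 negative). Only markers measured in all libraries are counted here, which leaves out Yp2, Yp3, vas and aub. Median coverage was 2.31 to 2.85 times background at the somatic markers and 11.2 to 17.6 at the germ cell markers. All genes in the lowest of 10 groups by coverage had a median difference of -0.38. The part of cell composition in the result was not tested, nor was that of low coverage in the marker values. Centred coverage was lower in both lid KD libraries than in both controls at 61 of the 84 genes (72.6%), where 30.1% of all genes were, and higher at 4 (4.76%), where 17.1% of all were. The 70 mitochondrial ribosomal protein genes had 25 lower and 8 higher. The control libraries themselves differed at the ribosomal protein genes by a median of 0.16 (control 2 over control 1, centred), which is close in size to the difference between the groups.

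This lean depended on the scale. Without centring, lid KD had a higher median coverage than control at all genes by 0.27 and at the ribosomal protein genes by 0.12, and 1 of the 84 genes was then lower and 8 were higher in both lid KD libraries, against 1.64% and 38.4% of all genes. On that scale 81 and 80 of the 84 genes in lid KD 1 and lid KD 2 lay above control 1, where 94.5% and 94.1% of all genes did, and 18 and 10 lay above control 2, where 52.6% and 42.9% did. What the centred values show is that these genes lay lower relative to other promoters, and whether their own mark was lost cannot be told apart from a shift of the rest. The difference also moved with the level of a gene. Over all genes, split by mean coverage into 10 groups of about equal size, its median was -0.38 in the lowest group, 0.11 in the next and lower in each later group, down to -0.14 in the highest, which held 53 of the 84 ribosomal protein genes. The part of this trend in the result was not tested.

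**Figure D5:**
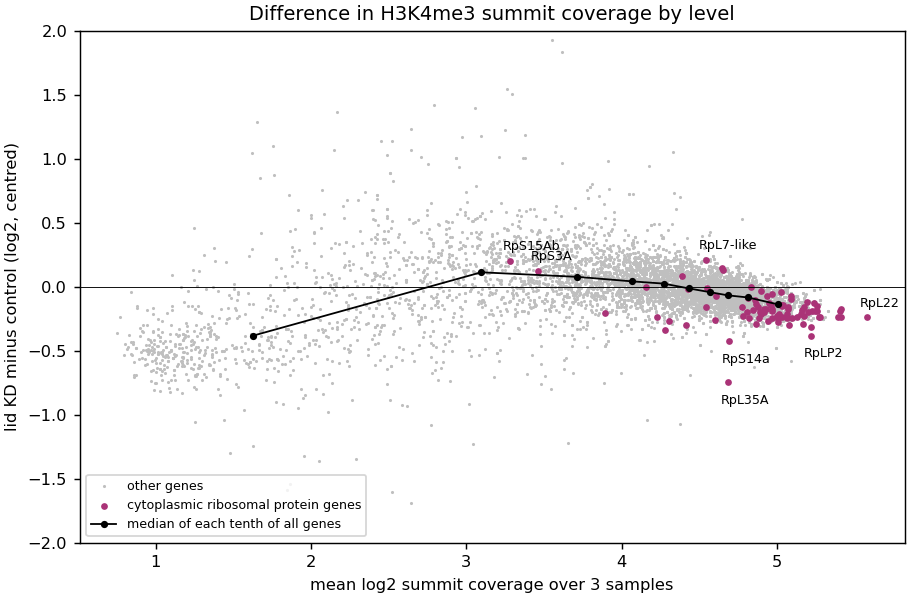
Difference between lid KD and control in centred log2 summit coverage against mean log2 coverage over 3 samples, for ribosomal protein genes (coloured), other genes (grey) and the median of each of 10 groups of all genes by level (black line; other genes beyond a difference of 2 are not drawn). The coloured points gather at the right at a median of -0.19, where the median of the highest group is -0.14.

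RpL35A, a large subunit protein, had the strongest value. Its coverage was 21.8 in control 1, 37.3 in control 2 and 21.0 in each lid KD library, a difference of -0.74 with an SE of 0.19 (limma, adjusted p = 0.092). The lid KD value came from another site than the control value. In the controls a single peak ran from 79 or 130 bp to 1336 or 1317 bp downstream, with its summit at 788 and 810 bp. In lid KD this was called as 2 peaks, and the one at 788 and 794 bp, of 35.7 and 33.7 times background, began 650 and 651 bp from the start, outside the window. With a window of 1000 bp the difference was -0.02.

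The same held at RpS14a, a protein of the small subunit platform. Its coverage was 21.5 in control 1, 32.7 in control 2, 24.3 in lid KD 1 and 24.4 in lid KD 2, with a difference of -0.42 (SE 0.20, adjusted p = 1.00, limma). The summit near 750 bp in the controls was called in lid KD as a separate peak from 606 and 603 bp onward, of 34.3 and 31.3 times background, and the difference with the wider window was 0.00. RpS29 followed, with 19.5 in control 1, 19.6 in control 2 and 18.4 in lid KD 2, lid KD 1 lying just above control 2, and a difference of -0.33 (SE 0.21, adjusted p = 1.00, limma).

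The positive differences were smaller. RpL7-like had 0.21 (SE 0.18), RpS5a 0.15 (SE 0.19) and RpL34a 0.13 (SE 0.19), each with an adjusted p of 1.00 in limma. At all 3 genes coverage without centring was lowest in control 1 and higher in both lid KD libraries than in both controls.

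Ranks within a library do not depend on the scaling. Each list was shortened to its 12087 strongest peaks by fold enrichment, and percentile ranks were given, 100 being the strongest. No ribosomal protein gene lay at least 10 points higher in both lid KD libraries than in both controls, as 1.16% of 6555 genes did. RpLP2, RpL35A and RpS14a lay at least 10 points lower, 3 of 84 (3.57%) against 1.31% of all genes. RpLP2 (chromosome 2R, 16586129-16586732), whose summit stayed within 179 to 216 bp of the start and which shares its window with no other gene, went from ranks of 88.5 (control 1) and 88.35 (control 2) to 74.1 (lid KD 1) and 74.8 (lid KD 2). With ranks by -log10 p it no longer passed the margin of 10 points. Its difference in coverage was -0.38 (SE 0.55, limma, adjusted p = 1.00), and at RpLP1 and RpLP0 it was -0.31 and -0.19. RpL35A went from 60.65 and 65.6 to 40.2 and 42.7 and RpS14a from 58.9 and 58.9 to 42.3 and 44.2, with the change of site given above.

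Peaks of these genes were wider in both lid KD libraries than in both controls at 4 of 84 genes (4.76%), against 23.1% of 6735 genes, and narrower at 21 (25%), against 13.1%. The values differed between the controls. Against control 1 alone 68 were narrower and 8 wider, where 49.8% and 37.0% of all genes were. Against control 2 alone 26 were narrower and 46 wider, where 25.4% and 62.2% of all genes were.

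Other genes of protein synthesis, from lists drawn up by function, were read in the same way. The small subunit proteins sta and Rack1, which carry other symbols, had promoter peaks in all libraries and differences of -0.31 and -0.22. Of 11 translation factors and nascent chain proteins, 9 had a peak in all libraries, with medians of 24.6, 40.3, 34.9 and 34.2 times background, summits at a median of 481 to 491 bp and a median difference of -0.16. All 11 ribosome biogenesis genes had one, at 21.5, 32.8, 31.9 and 31.3, with a median difference of -0.13. None of these genes passed the test, and 7 of 9 and 10 of 11 differences were negative, where 4008 of all 6716 were.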

How the data were processed

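H3K4me3 peak lists of 4 ovary libraries were used. Per the labels and the study's methods, the authors demultiplexed with bcl2fastq 2.17.1.14, aligned paired reads to BDGP6/dm6 with Bowtie2 2.3.3, kept unique alignments, removed duplicates with Picard 2.17.10 and called peaks in each library with MACS2 2.1.1 at a q-value of 0.1; whether an input library was used is not given in the sources used here. The deposited lists give fold enrichment, a ratio to local background, and the -log10 of the p-value and q-value. Summit offsets (other) were taken from the deposited lists, and the score column was not used.

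Summit pileup and background were solved from fold enrichment and -log10 p (whole within 0.05 for at least 99.9% of peaks, checked on simulated data). Median pileups of 281, 117, 349 and 291 give counting errors of 5.97%, 9.25%, 5.35% and 5.86%. Starts, exons and symbols came from the Ensembl annotation of BDGP6, and sequence from RefSeq. Protein identities were computed from translated coding sequence. The strongest peak per gene was the one with the highest pileup.

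limma 3.58.1 (trend on the mean, R 4.3.3) compared the mean of the near-identical lid KD libraries with both controls, 3 samples in all; the authors' test of read counts could not be run on peak lists. In simulated data with a spread of 0.13 (SD, log2) it recovered 99.5% of 200 changes of 1 and 100% of changes of 2 on the log2 scale among 6716 genes, with 10 and 1 false calls; the standard errors of the ribosomal protein genes had a median of 0.31, and recovery at that error was not simulated. Named genes were all paralogs, the 5 highest and 5 lowest by coverage, the 3 largest statistics in each direction, genes lacking a peak, the stalk, the ubiquitin fusions, lid and genes off the large arms. Members, lists and tests were chosen with earlier results of these data known. Alternatives covered windows, starts, thresholds, measures, scaling, GC content (lowess, fraction 0.3), replicate blocks and left-out libraries.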

Additional observations from a re-analysis of the deposited data

How the results depend on the processing

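The count of ribosomal protein genes with a promoter peak in all libraries stayed between 75 and 86 of 92 under other windows, starts, thresholds and list lengths, and was 36 of 44 where no other start lay in the window. Their excess over all genes in control coverage, 0.67, became 1.05 without shared windows, 0.81 on the transcribed side, and 0.18 by fold enrichment; without control replicate 1 or 2 it was 0.58 to 0.77. The median difference of -0.19 turned to 0.12 without centring and otherwise stayed between -0.27 and -0.09; leaving out single libraries gave -0.27 to -0.11. The count of genes called higher was 0 in every fit. The count called lower, 0, was 1 with the gene record start, 1 with lists of equal length, 0 to 1 without a lid KD library (1 without lid KD replicate 2), and 2 with a replicate block, with or without the GC correction (RpL35A, adjusted p = 8.07e-09 and 0.0111, and RpS14a, limma). Deviations of same-numbered libraries were hardly related (r = -0.12 for control 1 and lid KD 1). The lid KD pair differed by only 0.994 times the counting error, so this check could show neither a pairing nor its absence. The numbers were not used to pair samples. Over all genes, 7 were called higher and 2 lower, against 69 and 211 with the replicate block, 74 and 251 with block and GC correction, 64 and 95 with crossed numbers (added after seeing the data, with 2 of the 84 lower), and 0 to 19 and 0 to 12 in the other fits. RpL35A and RpS14a rest on a change of site, and RpS14a went to 0.0033 with a window of 1000 bp. The count moved down in rank, 3, was 19 with a margin of 5 points (9.31% of all genes, against 1.31%), 0 with 20, 2 by -log10 p (without RpLP2) or with lists as deposited (without RpS14a), and 3 to 10 without 1 library (10 without control replicate 1, against 6.20% of all genes); that moved up, 0, was 0 to 2 without 1 library. The width ratio of -0.09 was -0.26 (without control replicate 2) to 0.0335 (without control replicate 1). Of 15 paralog pairs, 11 to 14 kept 1 order. Fits without a control library have no residual degrees of freedom among samples and give no test. With 3 samples in the fit, pooled tissue and no read counts, small changes at these genes could not be detected at this depth.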
